A study of Homo sapiens with 6 samples.

Results

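The microRNA genes numbered MIR512 to MIR527 were read in HEK293 cells that carry TDNC1 and in cells that carry a random control RNA. Members were all rows of the deposited table whose symbol in the platform annotation runs from MIR512 to MIR527, letters and copy numbers included, with every row kept. The rule found 50 rows of 53617 in all, for 46 symbols, and all 50 were tested with no filter on low values. The working name of the set is the placental microRNA cluster of chromosome 19, and 42 rows (39 symbols) lie on that chromosome in the gene table used here. The other 8 rows (7 symbols), those of MIR513 and MIR514, lie on chromosome X and belong to another cluster, so they are given apart wherever they matter. The gene table holds 50 symbols of this form, and MIR512-1, MIR515-2, MIR520B and MIR514A3 have no row of that name here.

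The cells are Flp-In HEK293, a human embryonic kidney line in which a construct is placed at a fixed genomic site by Flp recombinase, and both groups were selected with hygromycin. The groups are cells stably expressing TDNC1 (3 arrays) and cells expressing a random RNA as control (3 arrays), with the stable clones of each kind pooled before RNA was extracted. TDNC1 is not spelled out in the labels, which also do not say whether the T-REx inducer was added. RNA was read on Affymetrix Human Gene 2.0 ST arrays, and each value is the log2 expression of 1 row (a transcript cluster). The titles number biological replicates, and separate cultures are not named, so each p-value reflects spread among these arrays that may be technical. TDNC1 replicate 3 was nearer to the control arrays than to its own group: over all rows its median absolute difference was 0.188 and 0.177 from TDNC1 replicates 1 and 2, against 0.136 from control replicate 3. Control replicate 3 was likewise nearer to TDNC1 replicate 3 (0.136) than to control replicates 1 and 2 (0.162 and 0.160). Counts are therefore also given near the end without TDNC1 replicate 3 and without both arrays numbered 3.

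As background, the chromosome 19 cluster is found in primates and holds many similar hairpins. In the placenta it is expressed from the paternal copy as a long noncoding transcript, from which the Drosha and DGCR8 complex cuts the hairpins and Dicer then makes the mature microRNAs. It is also known from embryonic stem cells and from some tumours, and is largely silent in most adult tissues. A microRNA finds its targets mainly through its seed, bases 2 to 8 of the mature strand. The cluster on chromosome X, which also holds miR-506 to miR-510, is best known from the testis. A row of these arrays reads labelled cDNA of the primary or precursor RNA, and the mature strands are not read apart from it. RNA was purified on silica columns, which in common protocols retain very short RNA poorly.

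The mature strands below show the families into which the members fall, with the seed in capitals and each strand written 5′ to 3′, from RefSeq (GRCh38.p14). The first set shares the seed AAGUGCU with miR-302a-3p to miR-302d-3p, miR-372-3p and miR-373-3p, which are known from embryonic stem cells.
miR-520a-3p: aAAGUGCUucccuuuggacugu
miR-520c-3p: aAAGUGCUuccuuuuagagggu
miR-520d-3p: aAAGUGCUucucuuuggugggu
miR-520e-3p: aAAGUGCUuccuuuuugaggg
The next strands hold the same letters with a different last base of the seed.
miR-519a-3p: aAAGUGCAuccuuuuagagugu
miR-519b-3p: aAAGUGCAuccuuuuagagguu
miR-519c-3p: aAAGUGCAucuuuuuagaggau
In the next pair the seed starts a base earlier and equals that of miR-17-5p, miR-20a-5p, miR-93-5p and miR-106b-5p, members of a family that is known to promote cell cycling.
miR-519d-3p: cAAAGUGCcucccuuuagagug
miR-526b-3p: gAAAGUGCuuccuuuuagaggc
Further families differ inside the seed, except miR-520g-3p, whose seed CAAAGUG starts a further base earlier in the same letters.
miR-518a-3p: gAAAGCGCuucccuuugcugga
miR-525-3p: gAAGGCGCuucccuuuagagcg
miR-521: aACGCACUucccuuuagagugu
miR-520g-3p: aCAAAGUGcuucccuuuagagugu
On the opposite arm, 11 members share 1 seed, as in this strand.
miR-519c-5p: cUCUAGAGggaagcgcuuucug
The chromosome X members share no such seed.
miR-514a-3p: aUUGACACuucugugaguaga

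Of the 46 symbols, 43 had a hairpin and 45 a mature strand in the sequence table. The chromosome 19 members carried 49 distinct mature sequences with 30 distinct seeds. The letters AAGUGC stood within bases 1 to 8 of a mature strand in 13 chromosome 19 symbols, and the letters AAGCGC in 7. Among all 2370 mature strands of the table, searched on the given strand only, 1.18% and 0.295% hold these letters there. Of the chromosome X symbols, 0 hold AAGUGC at that place. The chromosome 19 hairpins were 65 to 101 bases long, with a GC content between 39.3% and 54.1%. Aligned over their whole length, pairs of them had a median identity of 78.2%, up to 98.9%.

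The chromosome 19 rows lay mostly among the dim rows of every array. Their median, over the 40 rows with values of their own, was 3.66, 3.77 and 3.89 in TDNC1 replicates 1, 2 and 3, and 3.92, 3.67 and 3.71 in control replicates 1, 2 and 3. Both groups thus spanned nearly the same range. The median of all microRNA rows (1236) lay between 4.13 and 4.19 in the TDNC1 arrays and between 4.17 and 4.24 in the control arrays. The median of all rows lay between 5.16 and 5.17 in TDNC1 and between 5.16 and 5.22 in the control. The place of a row is given below as the share of all rows of the same array with a lower value. For the median chromosome 19 row this share was 23.4%, 24.7% and 26.4% in TDNC1, against 26.4%, 22.7% and 23.6% in the control. Each row has its own probes, so a place in the array does not order the amounts of different RNAs.

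Of the 40 rows, 17 lay below the lower quartile of all rows in all 6 arrays, and 29 below the median in all 6. Of the 1236 microRNA rows, 472 and 763 did so, and of all 53617 rows, 10914 and 24063. The rows of MIR518B and MIR520H were above the median of all rows in all 6 arrays, as was MIR513A2 on chromosome X. MIR518B, whose mature strand has the AAAGCGC seed, stood at 5.89, 6.12 and 5.91 in TDNC1, against 5.84, 6.07 and 5.80 in the control arrays. It lay above 64.0% of all rows and 79.8% of microRNA rows on average. MIR520H stood at 5.25, 5.45 and 5.47 in TDNC1, against 5.42, 5.38 and 5.59 in the control arrays, and MIR520G, whose hairpin is 96.7% identical to it, at 5.17, 5.33 and 5.65 in TDNC1, against 5.15, 5.32 and 5.61 in the control arrays. In all 3 the groups overlapped.

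At the low end, MIR519C stood at 1.43, 1.31 and 1.33 in TDNC1, against 1.43, 1.31 and 1.54 in the control arrays, above only 0.429% of all rows on average. MIR519B stood at 1.28, 1.95 and 1.52 in TDNC1, against 2.11, 1.66 and 1.45 in the control arrays. miR-519 strands are known to repress ELAVL1, which encodes the RNA-binding protein HuR, and miR-519c to repress the drug transporter gene ABCG2.

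**Figure D1:**
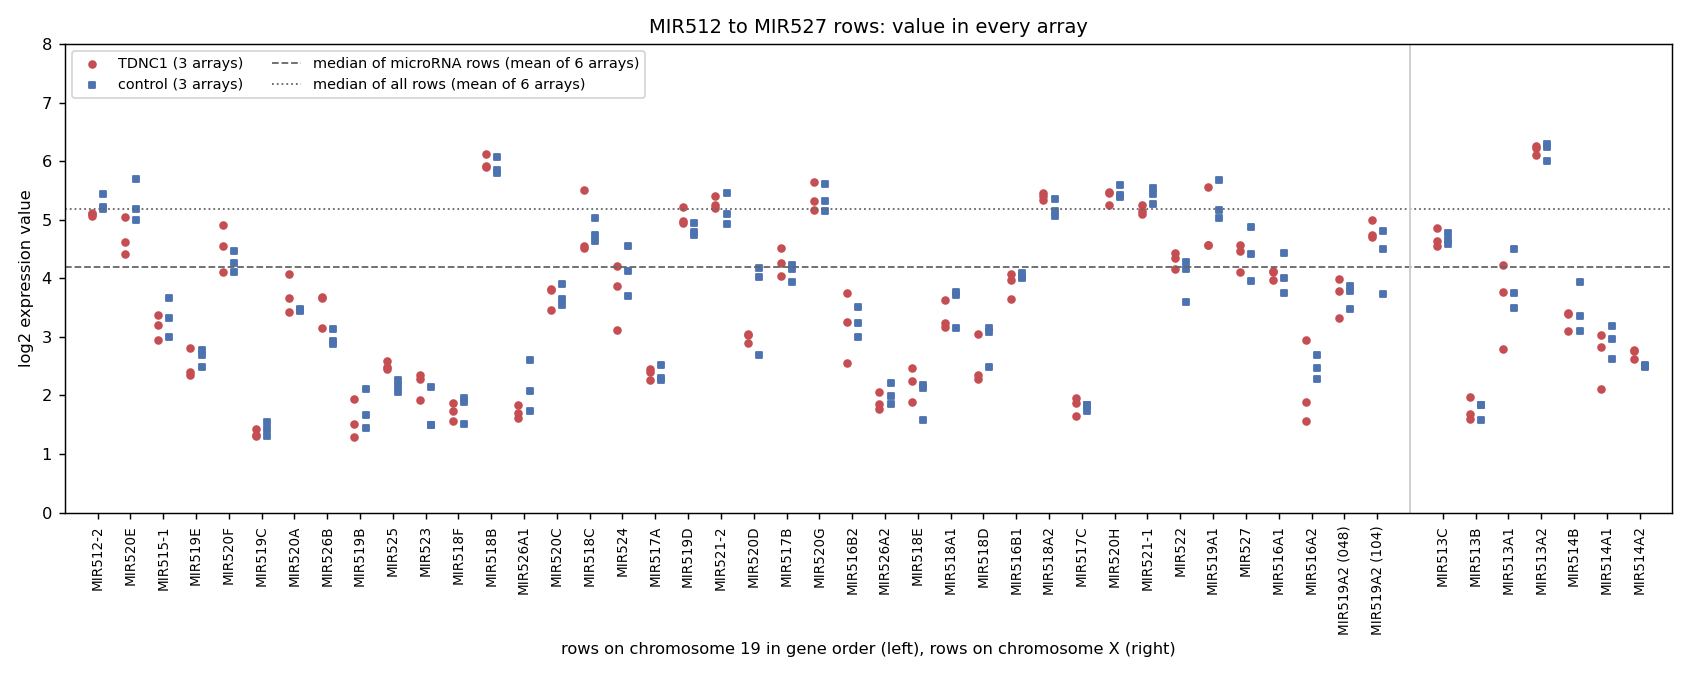
Log2 expression value (vertical axis) of each of the 47 rows with values of their own, chromosome 19 in the order of the gene table on the left and chromosome X on the right; red circles are the 3 TDNC1 arrays and blue squares the 3 control arrays, and the lines mark the medians of microRNA rows and of all rows. The groups overlap in most rows, most rows lie under the median of all rows, and MIR513A2, MIR518B and MIR520H stand above it in all 6 arrays. The numbers after MIR519A2 are the last digits of its 2 rows, which are placed together.

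Set beside other lists, the chromosome 19 rows held a low place in the array, as did some other microRNA clusters. Their median place, averaged over the 6 arrays, was 23.5%, against 31.7% for the 1186 microRNA rows outside the rule. The imprinted microRNA cluster of chromosome 14 had 17.6% over 37 rows, and 14 genes known from other tissues, such as ALB (liver) and PRM1 (sperm), had 33.2%. The 6 measured genes of the chromosome X cluster outside the rule had 14.6%. The rest of the chromosome 19 cluster, MIR498, MIR1323, MIR1283-1 and MIR1283-2, lay at 20.2%, 35.9%, 3.87% and 12.5%, with a median of 16.3%. Of the next cluster along the chromosome, known from embryonic stem cells, MIR371A lay at 60.7%, MIR373 at 43.0% and MIR372 at 16.2%. These shares are descriptions, and no test was made between lists.

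The protein-coding genes that flank the cluster differed in place. DPRX, a homeobox gene beside its start, lay above 17.4% of all rows, with 3.13 ± 0.18 in TDNC1 and 3.37 ± 0.16 in the control (SD, n = 3 each). The zinc finger gene ZNF331, the next gene, lay at 84.3%, with 7.63 ± 0.06 in TDNC1 and 7.56 ± 0.06 in the control (SD, n = 3 each). MYADM, beyond the far end, lay at 85.3%. The microRNA processing and loading factors had a median place of 87.7% over 12 measured genes. Of these, the export factor gene XPO5 lay at 97.0% and DGCR8 at 83.2%.

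Markers of trophoblast, the placental cell type in which the cluster is known, were mixed. Over 27 measured markers the median place was 47.4%, from 4.53% for PSG11 to 97.4% for PEG10. The pregnancy-specific glycoprotein gene PSG1 lay at 4.67%, the syncytiotrophoblast factor gene GCM1 at 45.7%, and TFAP2C, a transcription factor gene of trophoblast and other lineages, at 77.0%. Among the HEK293 and kidney markers, KRT18 lay at 94.8%, EPCAM at 96.8%, EYA1 at 88.9%, LHX1 at 68.7%, PAX2 at 66.7% and PAX8 at 48.2%, the lowest of the list. The 9 measured members had a median of 86.8%. The 11 measured pluripotency genes had a median of 30.8%, from 7.87% for NANOG to 87.8% for SOX2, which neural cells also express. Between these lay ZFP42 at 18.7%, POU5F1 at 46.7% and DPPA5 at 55.9%. Of the fibroblast markers 3 were named in the table, DCN at 6.38%, LUM at 22.3% and THY1 at 61.3%. Of the blood markers 3 were named, LYZ at 32.9%, CD14 at 44.1% and CD68 at 89.2%.

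**Figure D2:**
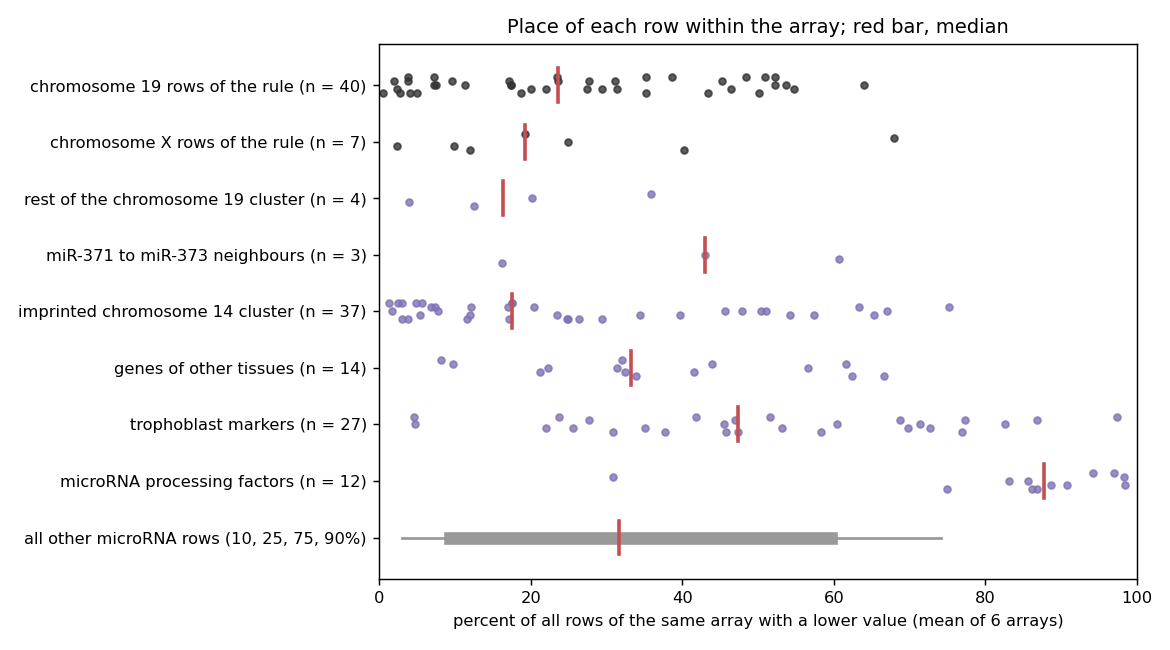
Share of all rows of the same array with a lower value, as the mean of the 6 arrays (horizontal axis, percent), for each row or gene of the lists named on the left; red bars are medians, and the grey bar gives the 10, 25, 75 and 90% points of the 1186 other microRNA rows. The chromosome 19 rows run from 0.429% to 64.0% with a median of 23.5%, and the processing factors have a median of 87.7%.

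In the comparison of TDNC1 with the control, which asks what changes when TDNC1 is expressed, 0 of the 50 rows passed limma's moderated test (smallest adjusted p = 0.631, Benjamini-Hochberg over all 53617 rows). Over all rows 1, or 0.00187%, passed. At an unadjusted p under 0.05 stood 6 of the 50 rows (12.0%), 4 higher and 2 lower in TDNC1, where the share over all rows was 7.7% (3.74% higher, 3.96% lower) and over microRNA rows 7.85% (2.99% higher, 4.85% lower). MIR514A2 enters that count with 2 rows of equal values, and 5 of the 47 rows with values of their own (10.6%) remain when such rows are counted once. The members' share is near that of all rows.

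The median log2 change, TDNC1 minus control, was -0.03 over the 50 rows, with 24 above 0 and 26 below. Over the 1236 microRNA rows it was also -0.03, and over all rows -0.01. The changes ran from -0.64 to 0.52. A change over 0.5 in size was seen in 3 of 50 rows (MIR526B, MIR520E and MIR520D), against 3.24% of all rows and 2.91% of microRNA rows. A change over 1, which is 2-fold, was seen in 0. The 95% interval lay between -1 and 1 in 43 of the 50 rows, so that a change of 2-fold or more lay outside it. In the other 7 rows, which include MIR520D and MIR520E, a change of that size lay inside the interval. The groups did not overlap in 7 of the 50 rows, 4 higher and 3 lower in TDNC1. With equal rows counted once it was 5 of 47 (10.6%), 3 higher and 2 lower. Over all rows 13.2% did not overlap (6.48% higher, 6.7% lower), and over microRNA rows 11.1% (4.29% higher, 6.8% lower).

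The sign of the change turned often along the cluster. Over the 38 chromosome 19 symbols with 1 set of values, in the order of the gene table, it turned in 22 of 37 steps, and the longest run of 1 sign was 4 genes. Over the 38 chromosome 19 rows with a hairpin sequence, the mean level and the hairpin's GC content had a Pearson correlation of 0.237 and a Spearman correlation of 0.206. These rows share arrays and similar sequences, so the values are descriptions.

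**Figure D3:**
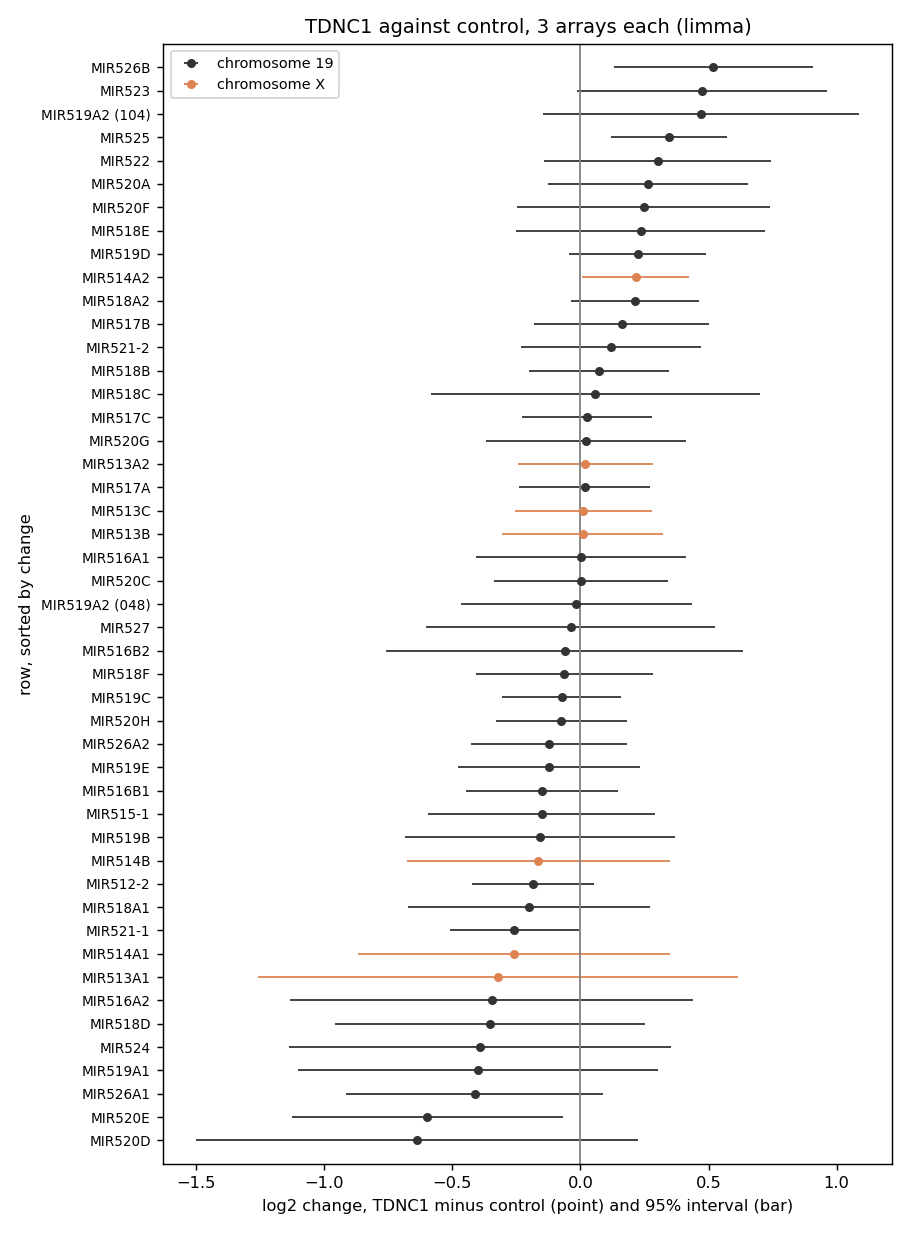
Log2 change, TDNC1 minus control (points, horizontal axis), with its 95% interval from limma (bars) for the 47 rows with values of their own, sorted by change; black is chromosome 19 and orange chromosome X, and the numbers after MIR519A2 are the last digits of its 2 rows. Most intervals cross 0. The changes run from -0.64 for MIR520D to 0.52 for MIR526B.

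The hairpins of the members with the smallest p are shown next, 5′ to 3′, because the values that follow belong to these precursors; capitals mark the seed of each mature strand in the sequence table. They are RefSeq sequences (GRCh38.p14), at chr19:53694393-53694475, chr19:53697533-53697617, chr19:53675711-53675797 and chr19:53748636-53748722 on the plus strand, in the order given, and at chrX:147281943-147282030 on the minus strand for the last.
MIR526B: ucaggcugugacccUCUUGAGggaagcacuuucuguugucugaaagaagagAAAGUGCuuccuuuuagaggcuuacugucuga
MIR525: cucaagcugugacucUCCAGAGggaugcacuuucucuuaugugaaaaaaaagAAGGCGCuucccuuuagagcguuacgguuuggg
MIR520E: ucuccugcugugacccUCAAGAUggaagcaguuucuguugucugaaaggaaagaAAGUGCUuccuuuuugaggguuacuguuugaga
MIR521-1: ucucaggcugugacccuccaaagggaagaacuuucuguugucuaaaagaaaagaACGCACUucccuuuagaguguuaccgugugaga
MIR514A2: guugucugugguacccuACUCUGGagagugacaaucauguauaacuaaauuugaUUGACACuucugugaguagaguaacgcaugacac

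MIR525 had the smallest p among the members. Its values were 2.45, 2.59 and 2.49 in TDNC1, against 2.26, 2.17 and 2.07 in the control arrays. All 3 TDNC1 arrays lay above all 3 control arrays, within a narrow range. The log2 change was 0.34 (SE 0.10, 95% interval 0.12 to 0.57), with an unadjusted p of 0.00866 and a limma adjusted p of 0.631. The row is dim, above 7.21% of all rows on average.

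MIR526B, whose 3p strand shares the miR-17 seed, had the highest positive change. It stood at 3.69, 3.15 and 3.66 in TDNC1, against 2.93, 2.88 and 3.13 in the control arrays. TDNC1 replicate 2, at 3.15, was just above control replicate 3, and TDNC1 replicates 1 and 3 lay well above all controls. The change was 0.52 (SE 0.16, interval 0.13 to 0.91, limma adjusted p = 0.631). MIR519D, the other member with that seed, stood at 4.99, 4.94 and 5.22 in TDNC1, against 4.74, 4.78 and 4.94 in the control arrays, a change of 0.22 (SE 0.11) with overlapping groups, or 0.14 without TDNC1 replicate 3.

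The remaining members with the smallest p toward higher values were MIR514A2, MIR523 and MIR518A2. MIR514A2, on chromosome X, stood at 2.76, 2.77 and 2.62 in TDNC1, against 2.50, 2.48 and 2.52 in the control arrays, a change of 0.22 (SE 0.09, limma adjusted p = 0.646) with no overlap. MIR523 stood at 2.28, 2.35 and 1.93 in TDNC1, against 2.15, 1.497 and 1.498 in the control arrays, where control replicate 1 lay inside the TDNC1 range (change 0.47, SE 0.21). MIR518A2 had 5.40 ± 0.06 in TDNC1 and 5.19 ± 0.15 in the control (SD, n = 3 each), with overlap.

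Toward lower values, MIR520E had the smallest p. Its 3p strand has the AAGUGCU seed of the stem cell microRNAs. It stood at 4.62, 4.42 and 5.04 in TDNC1, against 5.18, 4.99 and 5.70 in the control arrays. Replicate 3 was the highest array in each group, and TDNC1 replicate 3 lay above control replicate 2. The change was -0.60 (SE 0.22, interval -1.13 to -0.07), with an unadjusted p of 0.0319 and a limma adjusted p of 0.637. It was -0.39 without control replicate 3.

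MIR521-1 stood at 5.25, 5.09 and 5.14 in TDNC1, against 5.54, 5.45 and 5.26 in the control arrays, a change of -0.26 (SE 0.11, limma adjusted p = 0.646). The groups did not overlap, though the highest TDNC1 array and the lowest control array were close. MIR512-2, whose 2 rows hold the same values, stood at 5.12, 5.10 and 5.06 in TDNC1, against 5.43, 5.18 and 5.21 in the control arrays, also without overlap, with a change of -0.18 (SE 0.10), or -0.11 without control replicate 1.

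MIR520D had the change of largest size, -0.64, but also a wide spread (SE 0.37, limma adjusted p = 0.690). It stood at 3.05, 2.90 and 3.03 in TDNC1, against 4.18, 4.02 and 2.69 in the control arrays. Control replicate 3 was the lowest of all 6 arrays, while the other controls lay above 4. Without it the change was -1.11, and without control replicate 1 it was -0.36. MIR526A1 had 1.73 ± 0.11 in TDNC1 and 2.14 ± 0.44 in the control, and MIR518D 2.55 ± 0.43 in TDNC1 and 2.91 ± 0.36 in the control (SD, n = 3 each); the groups overlapped in both. Without control replicate 3 the change of MIR526A1 was -0.18, against -0.41 with all arrays, and that of MIR518D ran from -0.60 to -0.21 with 1 array left out.

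**Figure D4:**
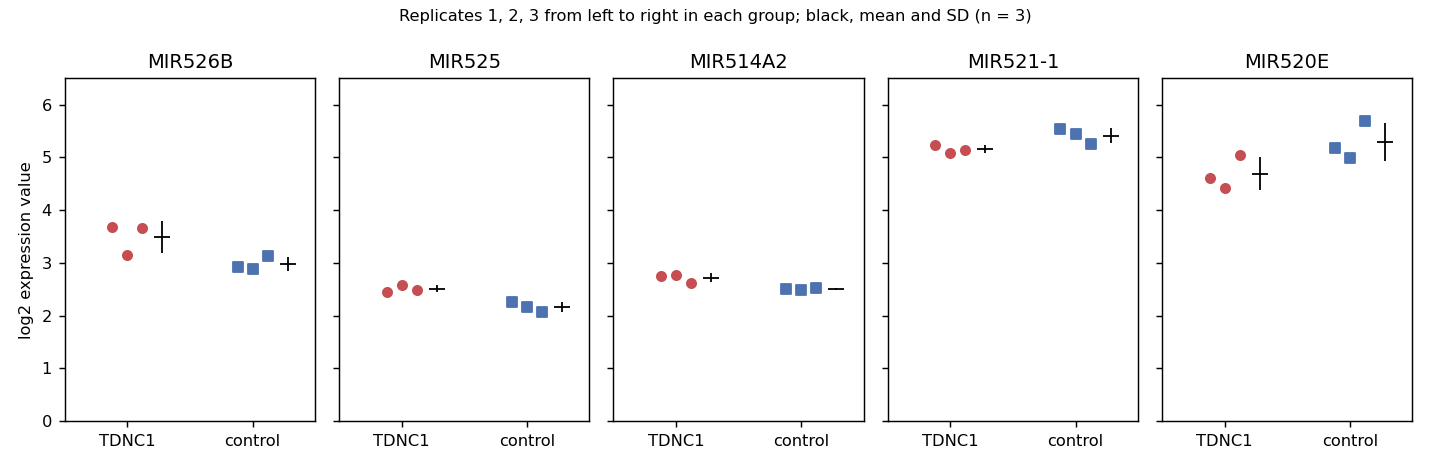
Log2 expression value (vertical axis) in each array of the 5 members with an unadjusted limma p under 0.05, TDNC1 (red circles) on the left and control (blue squares) on the right of each panel, with replicates 1, 2 and 3 from left to right and the mean and SD (n = 3) in black. The groups do not overlap for MIR526B, MIR525, MIR514A2 and MIR521-1, and overlap for MIR520E; 0 of these rows passed after adjustment.

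Because many hairpins are near copies, a row may read more than 1 of them, and the values of similar members are uncertain as to their source. The 2 hairpins below differ the least on chromosome 19 (identity 98.9%), and both give the same mature strands. They lie at chr19:53756741-53756830 and chr19:53761133-53761222 (GRCh38.p14, plus strand).
MIR516A1: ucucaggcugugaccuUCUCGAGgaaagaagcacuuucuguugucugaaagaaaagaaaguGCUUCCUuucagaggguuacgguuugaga
MIR516A2: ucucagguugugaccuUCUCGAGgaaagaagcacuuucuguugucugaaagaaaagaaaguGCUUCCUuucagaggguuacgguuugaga
Their rows did not hold the same values. MIR516A1 stood at 4.11, 4.13 and 3.97 in TDNC1, against 4.01, 3.76 and 4.44 in the control arrays. MIR516A2 stood at 2.94, 1.57 and 1.89 in TDNC1, against 2.69, 2.28 and 2.48 in the control arrays.

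The MIR521 copies, whose hairpins are 95.4% identical and whose mature strand is the same, had changes of opposite sign. MIR521-1 had -0.26 (SE 0.11) and MIR521-2 0.12 (SE 0.15), and the MIR521-2 row stood at 5.41, 5.25 and 5.19 in TDNC1, against 4.94, 5.10 and 5.46 in the control arrays. MIR518A1 and MIR518A2, also 95.4% identical, had -0.20 (SE 0.20) and 0.21 (SE 0.11). Over the 22 pairs of chromosome 19 rows whose hairpins were at least 90% identical, the changes had the same sign in 10. Over the 680 other pairs they had it in 336. Both rows named MIR519A2 were counted under that name in these pairs.

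In 3 symbols, MIR512-2, MIR515-1 and MIR514A2, both rows held equal values in all 6 arrays. The 2 rows named MIR519A2 did not. Row 16865104 stood at 4.996, 4.74 and 4.71 in TDNC1, against 4.80, 3.73 and 4.50 in the control arrays, a change of 0.47 (SE 0.26). It was 0.16 without control replicate 2, the lowest array. Row 16865048 stood at 3.32, 3.78 and 3.98 in TDNC1, against 3.88, 3.47 and 3.78 in the control arrays, a change of -0.02 (SE 0.19). The annotation gives both rows 1 name, and in the sequence table the 5p strand of MIR519A2 has the same seed as that of MIR520B, for which no row is named. Row numbers rise in gene order over the other chromosome 19 members with 1 row. By number, row 16865048 falls between MIR518F (16865046) and MIR518B (16865050). Which gene it reads was not tested. MIR515-1 stood at 2.95, 3.21 and 3.37 in TDNC1, against 3.66, 3.32 and 3.00 in the control arrays.

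Grouped by seed, the larger groups held changes of both signs, and 0 of their rows passed the adjusted threshold. The 4 genes with the AAGUGCU seed held MIR520A at 0.26 and MIR520C at 0.001, whose sign turned when some arrays were left out, beside MIR520E at -0.60 and MIR520D at -0.64. Of the 5 rows with the AAGUGCA seed, which include both rows named MIR519A2, 1 was above 0, and the median change was -0.07. The seed group of row 16865048 rests on a name that it shares with row 16865104. The 6 rows with the AAAGCGC seed split into 3 above and 3 below 0. Both rows with the AAAGUGC seed, MIR519D and MIR526B, were above 0. The 3 MIR517 rows were above 0 with changes of 0.02, 0.16 and 0.03, each smaller than 2 SE, and the sign turned for MIR517A and MIR517C when some arrays were left out. Of the 11 rows with the 5p seed UCUAGAG, 4 were above and 7 below 0, with a median of -0.07. Over the 14 rows of all members with the letters AAGUGC at the start of a strand, the median change was -0.04, with 6 above 0.

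The chromosome X members ranged from bright to dim rows. MIR513A2 had the highest place of the 50 rows, at 6.23, 6.26 and 6.10 in TDNC1, against 6.30, 6.0003 and 6.23 in the control arrays, above 67.9% of all rows on average. MIR513B was among the dimmest, at 1.61, 1.68 and 1.98 in TDNC1, against 1.83, 1.83 and 1.58 in the control arrays. MIR513A1, whose hairpin is 96.9% identical to that of MIR513A2, had the widest range over the 6 arrays among the 50 rows, from 2.79 to 4.23 in TDNC1 and from 3.50 to 4.50 in the control. Apart from MIR514A2 the groups overlapped in all of them. The 6 other measured genes of that cluster had a median change of -0.004, with 3 above and 3 below 0. Of these, MIR509-3 had a change of -0.54 (SE 0.19) and MIR507 -0.38 (SE 0.15). Both had an unadjusted limma p under 0.05, as did 7.7% of all rows and 7.85% of microRNA rows. Neither gene passed (limma adjusted p = 0.631 and 0.642).

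The genes around the cluster and the lists tied to its known roles had 0 members past the adjusted threshold. The 4 other members of the chromosome 19 cluster had changes between -0.34 and 0.12, and all groups overlapped. MIR372 had -0.40 (SE 0.17), MIR371A -0.11 and MIR373 -0.02. The 14 measured protein-coding neighbours had a median change of -0.01, with 7 above and 7 below 0, and 0 had an unadjusted p under 0.05. Among microRNAs of other loci with related seeds, MIR302C had -0.51 (SE 0.20) and MIR106B 0.09 (SE 0.11), and the median over 9 genes was 0.02. The chromosome 14 cluster had a median of 0.01 over 37 rows, and 2 of these had an unadjusted p under 0.05, in opposite directions. Of the 14 measured genes known from other tissues (25 listed), 13 were below 0, with a median of -0.09, and 0 had an unadjusted limma p under 0.05. Below 0 were also 28433 of all 53617 rows and 707 of the 1236 microRNA rows.

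Of the 12 measured processing and loading factors, 4 were above and 8 below 0, between -0.23 for SRRT, which brings capped transcripts to Drosha, and 0.11 for the helicase gene DDX17. DGCR8 had -0.06 (SE 0.14), XPO5 0.10 (SE 0.10) and TARBP2, a Dicer partner, -0.20 (SE 0.11). Of 15 reported targets of AAGUGC microRNAs, 6 were named in the table. TXNIP, which limits glucose uptake, had 0.66 (SE 0.35), and it stood at 7.13, 6.95 and 5.78 in TDNC1, against 6.20, 5.98 and 5.70 in the control arrays. TDNC1 replicate 3 thus lay within the control range for it. RHOC had 0.14, LEFTY1 -0.19 and E2F1 0.17, all with overlap.

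Among the trophoblast markers, 9 of 27 were above 0 and the median change was -0.04. The groups did not overlap in 3 of the 27 (11.1%, against 13.2% of all rows), 1 higher and 2 lower in TDNC1. These were TFAP2C with 0.30 (SE 0.09, limma adjusted p = 0.631), PSG9 with -0.23 (SE 0.10) and GATA2 with -0.23 (SE 0.11). Of the pluripotency genes, 6 of 11 were above 0. NANOG, a dim row, had -0.51 (SE 0.14), with all TDNC1 arrays below all control arrays at 2.15, 2.17 and 2.11 against 2.37, 2.84 and 2.75. Of the 9 measured HEK293 and kidney markers, 5 were above and 4 below 0, with a median change of 0.01. The groups did not overlap in 1 of the 9 (11.1%, against 13.2% of all rows). This was the kidney developmental gene PAX2, with the highest change of that list, 0.41 (SE 0.12, limma adjusted p = 0.631). Of the genes often used as controls, GAPDH had 0.01 (SE 0.09), EEF1A1 -0.0002 (SE 0.09), HPRT1 0.14 (SE 0.09) and TBP -0.28 (SE 0.11), and the groups overlapped in GAPDH and EEF1A1 only. The part of cell composition in the members' values was not tested.

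The odd place of TDNC1 replicate 3 over the whole table was less plain over the members. It differed from TDNC1 replicates 1 and 2 by a median of 0.23 and 0.22, against 0.21 between replicates 1 and 2. From control replicates 1, 2 and 3 it differed by 0.19, 0.22 and 0.27. Members with TDNC1 replicate 3 far from the other TDNC1 arrays, named after their values were seen, were MIR518C, at 4.56, 4.52 and 5.51, MIR519A1, at 4.57, 4.57 and 5.55, and MIR524, at 3.87, 4.22 and 3.11. In the control arrays these rows stood at 5.03, 4.74 and 4.64, at 5.17, 5.68 and 5.03, and at 4.12, 4.55 and 3.71.

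Without TDNC1 replicate 3, 0 of 50 members passed (smallest limma adjusted p = 0.214), where 0.0429% of all rows did. At an unadjusted p under 0.05 stood 8 rows (16.0%), against 14.5% of all rows and 9.63% of microRNA rows. These were MIR520E, MIR520F, MIR525, MIR523, MIR518D, MIR519A1 and both rows of MIR514A2. MIR526B and MIR521-1 were no longer among them, though their changes were about as large: MIR526B had 0.44, against 0.52 with all arrays, and MIR521-1 had -0.25, against -0.26. The median within-group SD was 0.24 over the members, against 0.20 over microRNA rows and 0.16 over all rows, and with 3 arrays a group the median half-width of a member's 95% interval was 0.39.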

How the data were processed

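Per the submitters' processing notes, the authors made the deposited log2 values of 6 arrays with Affymetrix Power Tools by RMA; no version, annotation release or build is named there. That the scale is log2 was judged from the range (0.79 to 13.85). RMA equalises the arrays' distributions, so a shift common to most rows would be removed, and it compresses changes of dim rows. Rows were named through the platform annotation (16098 rows with 1 symbol, 37519 unnamed here). Any row given several symbols was left unnamed, and such rows were not counted apart. Entrez identifiers gave chromosome and order in the GRCh38.p14 gene table.

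Groups came from the sample titles. limma 3.58.1 in R 4.3.3 (lmFit, eBayes, two-sided, no covariate) was fitted on all 53617 rows, with Benjamini-Hochberg adjustment and a threshold of 0.05. The step was tested on simulated arrays. Members and lists were chosen with earlier results of these data known. Members named with values in every array were the 6 highest and 3 lowest in mean, the 6 with the smallest p in each direction, those with more than 1 row, and those with separate groups and a change over 0.5 in size. In each list the 4 smallest p-values could be named, and control genes always. Other members (near-identical copies, seed groups, MIR513A1, MIR518C, MIR519A1, MIR524) and other list genes were chosen after their values were seen. Lists used 1 row per symbol, the highest in mean. List genes called measured are those with a row named by 1 symbol, and the others may have unnamed rows. No set test was made. Alternatives changed the model, the rows tested, the centring, the arrays used and the block.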

Additional observations from a re-analysis of the deposited data

How the results depend on the processing

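In every alternative run, 0 of the members tested passed the adjusted threshold. The median change of the members, -0.03, ran from -0.09 without TDNC1 replicate 3 (-0.06 with array weights) to 0.03 with arrays centred on the microRNA rows. Each move was smaller than the SD of the members' array medians within a group, 0.14, and the sign is not settled. The 6 members with an unadjusted p under 0.05 (4 higher, 2 lower) became 2 and 1 with an intensity trend, 2 and 1 when only microRNA rows were fitted, and 0 and 1 among rows at or above the median level, where 9 members remained. The lower count was 4 with array weights, 1 with array medians centred and 1 after quantile normalization, and 7 higher and 1 lower stood with arrays centred on the microRNA rows. In both directions together, 18% of members and 13.4% of all rows stood under that p with array weights. With array medians centred it was 12% and 7.70%, after quantile normalization 10% and 7.78%, and with microRNA centring 16% and 8.11%. Without both arrays numbered 3 the lower count was 6, and on chromosome 19 alone the higher count was 2. Without both arrays numbered 3, 18% of members and 15.0% of all rows stood under that p. On chromosome 19 alone, with all arrays, it was 9.52%, against 7.70% of all rows. Leaving out 1 array at a time gave 2 to 5 higher and 0 to 3 lower, with the extremes without TDNC1 replicate 2 (2 and 0) and without TDNC1 replicate 3 (5 and 3). These extremes were 4% of members against 5.02% of all rows, and 16% against 14.5%. Rows without overlap (4 higher, 3 lower) were 11 and 14 without both arrays numbered 3, that is 25 of 50, where 47.9% of all rows and 39.6% of microRNA rows did not overlap. With 1 array left out they were 6 to 8 higher and 3 to 9 lower. In both directions together this was 18% to 34% of the members and 20.5% to 33.3% of all rows. Without TDNC1 replicate 3 it was 34.0% of the members, 33.3% of all rows and 24.1% of microRNA rows. Rows without overlap were 0 higher at or above the median level, 0 lower with microRNA centring, and 2 higher on chromosome 19 alone. Over all rows tested, 8.80% were higher at or above the median level, and 3.80% lower with microRNA centring.

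Over all rows, the 1 call became 0 among microRNA rows and 1 to 23 with 1 array left out (23 without TDNC1 replicate 3, 2 without control replicate 3). The 4129 rows with an unadjusted p under 0.05 became 7165 with array weights, 1665 among named rows, 73 among microRNA rows, 8035 without both arrays numbered 3, and 2692 to 7770 with 1 array left out (7770 without TDNC1 replicate 3).

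Members near 0 turned sign in some settings. MIR513A2 had -0.0692 to 0.0785 with 1 array left out (below 0 without TDNC1 replicate 2 and without control replicate 2), MIR518B -0.00103 to 0.155 (below 0 without TDNC1 replicate 2), and MIR520G -0.11 to 0.15 (below 0 without TDNC1 replicate 3 and without control replicate 1). MIR519B had -0.34 to 0.0282 and MIR515-1 -0.31 to 0.0145, both above 0 without control replicate 1. MIR513B had -0.10 to 0.0849 (below 0 without TDNC1 replicate 3 and without control replicate 3), and, leaving out both arrays numbered 3, -0.19; array weights gave -0.0656. Row 16865048 of MIR519A2 had 0.00635 with array medians centred, 0.0215 after quantile normalization, 0.0378 with microRNA centring, and -0.16 to 0.17 with 1 array left out (above 0 without TDNC1 replicate 1, control replicate 1 or control replicate 3). The cause was not tested. Among members named after their values were seen, MIR513A1 had -0.64 to 0.0785 with 1 array left out (above 0 without TDNC1 replicate 1) and MIR516A1 -0.15 to 0.19 (below 0 in 4 of the 6). MIR518C had -0.27 to 0.23, with array weights -0.14, and -0.35 when both arrays numbered 3 were left out. In the same order, MIR520C had -0.0737 to 0.12, -0.0044 and -0.083, and MIR517A -0.0336 to 0.0953, -0.0211 and -0.0486. MIR517C had -0.0369 to 0.11, and -0.0195 without both arrays numbered 3. The other member rows named with a change kept their sign in every alternative that tested them, MIR525 between 0.29 and 0.40 and MIR526B between 0.42 and 0.69.

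Same-numbered arrays shared little of their deviations, with correlations of 0.036, -0.0013 and 0.047 for numbers 1, 2 and 3. TDNC1 replicate 2 correlated best with control replicate 1 (0.052). The arrays numbered 3 were each other's best match, also by their median absolute difference over all rows (0.136). The labels do not say whether a number marks a shared culture or day. With the replicate block, the unadjusted threshold was met by 3 members higher and 2 lower in TDNC1 (10% of members, against 7.66% of all rows). After adjustment 1 row of all passed. The small number of arrays and the low signal of most members limit what can be detected.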
